A study of Lachancea kluyveri with 16 samples.

Results

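UGA4 (SAKL0G14762g) is the gene of *Lachancea kluyveri*, a budding yeast, that the study named for the GABA permease of *Saccharomyces cerevisiae*. It was taken as every probe of that locus tag on all 16 arrays, which was 2 of 10620 gene probes and 1 of 5316 genes with a probe. It was chosen by its measured rise in SEF1-VP16 cells over wild type (WT) on the arrays labelled YPD, which was the largest of all genes tested. The values of those arrays are therefore given below as a description, with no test. The strain effect on the arrays labelled YPGly was measured on cultures that the choice did not use, and it is the result on UGA4 that was tested.

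GABA (γ-aminobutyrate) is a non-protein amino acid that yeast can use as a nitrogen source. In *S. cerevisiae*, Uga4 carries GABA into the cell and also transports 5-aminolevulinic acid, a precursor of heme. The transaminase Uga1 then removes the amino group, and the dehydrogenase Uga2 oxidises the remaining succinate semialdehyde to succinate, an intermediate of the TCA cycle. The zinc cluster protein Uga3 activates these genes when GABA is present, and preferred nitrogen sources repress UGA4 in that species.

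The arrays compared SEF1-VP16 and WT cells in rich media that the labels call YPD (glucose) and YPGly (glycerol). Every combination of strain and medium had 4 cultures, and each culture had 1 single-colour array. SEF1-VP16 is 1 transformant of the WT strain, in which the chromosomal copy of the transcription factor gene SEF1 ends in the VP16 activation domain of a herpesvirus, and both strains are MATa and carry ura3. Growth lasted 5.5 h from a density of 0.2 optical units. The study used the fusion to ask which genes respond when Sef1 becomes a stronger activator, and UGA4 was among the genes it had assigned to Sef1 binding peaks. Its supplement marks the UGA4 peak as not called in cells grown in glucose.

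Between 94.49% and 99.95% of gene probes were well above background on an array, none was saturated, and arrays of 1 group correlated at 0.977 to 0.996. All arrays labelled YPD lay on slide 1 and all labelled YPGly on slide 2, and the medium cannot be told apart from the slide. SEF1-VP16 occupied array row 2 and WT row 1 of both slides, and the strain cannot be told apart from the row. PCK1 (SAKL0E15048g) and ICL1 (SAKL0F08756g), which encode enzymes of gluconeogenesis and the glyoxylate cycle that glucose represses in *S. cerevisiae*, were lower on the arrays labelled YPGly. In WT they differed by −5.92 and −5.99 on the log2 scale (limma, adjusted p 2.83e-15 and 1.27e-13), and in SEF1-VP16 by −5.15 and −5.49 (adjusted p 1.49e-14 and 4.08e-13). These genes were chosen after their values were seen. The study's own materials set the strain effects under the media in both orders, and the labels YPD and YPGly may be exchanged. Media are therefore given by label, and every statement on a medium below would swap its medium if the labels are exchanged.

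SEF1 itself (SAKL0F12342g), whose own locus carries the fusion, was lower in SEF1-VP16 cells on the brighter of its probes. Its level was −2.25 ± 0.14 in SEF1-VP16 and −1.86 ± 0.15 in WT cells labelled YPD, and −2.13 ± 0.07 in SEF1-VP16 and −1.77 ± 0.16 in WT cells labelled YPGly (log2 relative to the array's 75th percentile, SD, n = 4). The differences of −0.39 and −0.36 had adjusted p-values of 0.0338 and 0.0446 in limma but were below 1.5-fold. The other probe gave −0.35 (adjusted p 0.12) labelled YPD and −0.16 (adjusted p 0.497) labelled YPGly. These values do not test for the fusion, because the positions of the probes within the gene were not used here.

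UGA4 transcript was most abundant in SEF1-VP16 cells labelled YPD, lower in SEF1-VP16 cells labelled YPGly, and lowest in WT cells of either label. The brighter of its probes gave processed signals of 8639, 7387, 9276 and 14143 in the SEF1-VP16 cultures labelled YPD, against 1565, 1132, 1208 and 2066 in the WT cultures labelled YPD. On the arrays labelled YPGly the signals were 4416, 4306, 5202 and 3851 in SEF1-VP16, against 1965, 2065, 2041 and 2338 in WT. Every SEF1-VP16 array was brighter than every WT array of the same label, and also than every WT array of the other label. The dimmer probe gave 5025, 3677, 4653 and 7151 in SEF1-VP16 cells labelled YPD, against 637, 586, 609 and 702 in WT cells labelled YPD. On arrays labelled YPGly it gave 2296, 2064, 2624 and 1472 in SEF1-VP16 cells, against 864, 955, 809 and 980 in WT cells. The probes lay far apart on the array, in spot rows 184 and 2, and showed the same separation of strains.

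No UGA4 value was limited by detection. Both probes were well above background on all 16 arrays, and neither was marked as non-uniform or named by the array design as cross-hybridising. The local background around the spots was between 2 and 201 units, and the lowest UGA4 signal, in WT cells labelled YPD, was 586 units. The lowest ratio of spot to local background was 10.6.

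**Figure D1:**
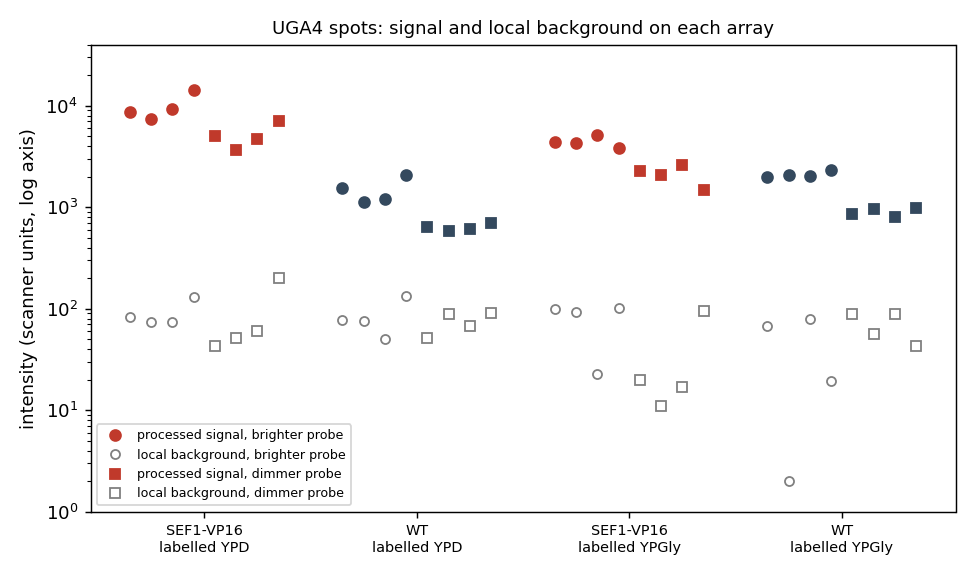
Processed signal (filled symbols) and local background (open grey symbols) of the UGA4 spots on each of the 16 arrays, in scanner units on a log axis, with circles for the brighter and squares for the dimmer probe, SEF1-VP16 in red and WT in dark blue. The lowest filled symbol is at 586 units and the highest background value at 201 units.

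Arrays differed in overall brightness, with 75th percentiles between 10998 and 24035 units, so levels were set relative to the 75th percentile of the same array, on the log2 scale. On this scale the brighter probe was at −0.60 ± 0.15 in SEF1-VP16 and −3.30 ± 0.42 in WT cells labelled YPD, and at −1.91 ± 0.16 in SEF1-VP16 and −3.41 ± 0.10 in WT cells labelled YPGly (SD, n = 4). Expressed linearly, UGA4 reached on average 65.8% of the array's 75th percentile in SEF1-VP16 cells labelled YPD, against 10.2% in WT cells labelled YPD. The corresponding levels on arrays labelled YPGly were 26.6% in SEF1-VP16 and 9.39% in WT. These are levels relative to the other transcripts of a culture, in which fewer cells with the transcript and less transcript per cell cannot be told apart.

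The order of the 4 groups was the same for both probes down to the WT groups. The SEF1-VP16 arrays labelled YPD lay between −0.73 and −0.43 on the brighter probe, and the SEF1-VP16 arrays labelled YPGly between −2.04 and −1.69, with no overlap. The WT arrays labelled YPGly, from −3.54 to −3.31, fell inside the range of the WT arrays labelled YPD, from −3.75 to −2.81. For the dimmer probe the levels were −1.54 ± 0.22 in SEF1-VP16 and −4.50 ± 0.28 in WT cells labelled YPD, and −3.00 ± 0.05 in SEF1-VP16 and −4.63 ± 0.02 in WT cells labelled YPGly (SD, n = 4). WT arrays of the 2 labels overlapped on this probe as well.

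**Figure D2:**
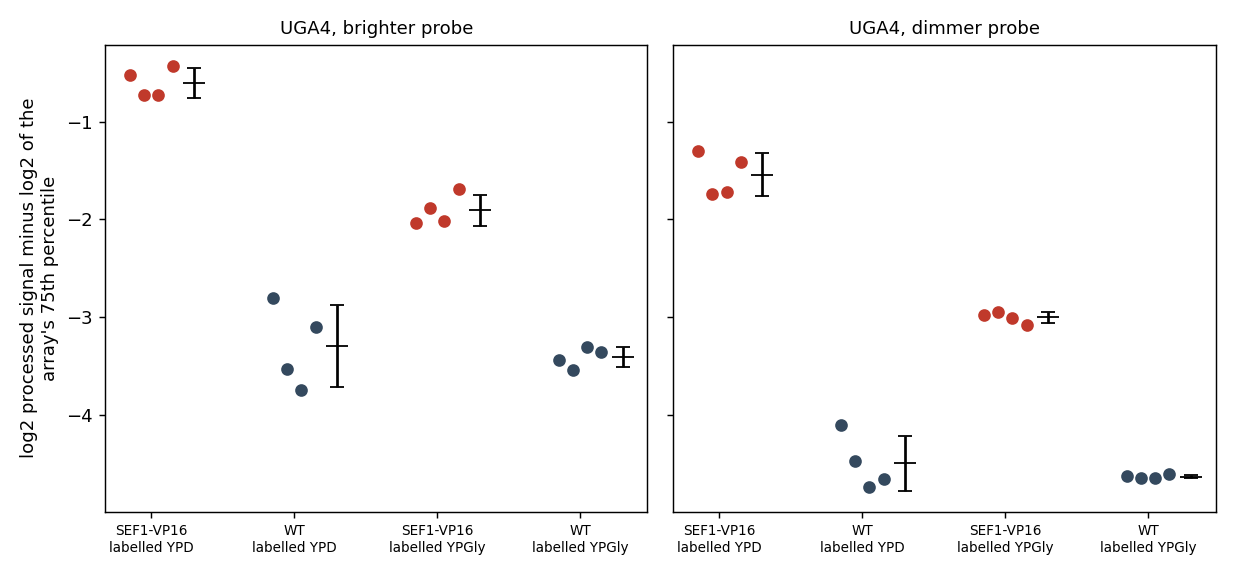
Level of UGA4 on each array, as log2 processed signal minus log2 of the array's 75th percentile, for the brighter probe (left) and the dimmer probe (right), with SEF1-VP16 in red, WT in dark blue, and bars for the mean and SD of 4 cultures. All SEF1-VP16 arrays lie above all WT arrays on both probes, while the WT groups overlap.

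The arrays labelled YPGly asked whether UGA4 also differed between the strains in cultures other than those that singled it out. UGA4 rose 2.84-fold in SEF1-VP16 over WT cells on these arrays, with a 95% confidence interval of 2.46 to 3.27, or 1.5 on the log2 scale (SE 0.09). In a limma fit of the 8 arrays labelled YPGly alone this had an adjusted p of 2.68e-05 over 5257 genes, and all 4 SEF1-VP16 arrays lay above all 4 WT arrays. The dimmer probe gave a 3.10-fold rise, or 1.63 (SE 0.06), with an adjusted p of 1.8e-06. A two-sided exact permutation test of the 4 against 4 arrays gave p = 0.0286 for each probe, the smallest that this design allows. In that fit 142 genes (2.7%) were called, meaning an adjusted p of at most 0.05 with at least a 1.5-fold difference. Of these 91 (1.73% of the genes tested) were higher in SEF1-VP16, and the rise of UGA4 was number 4 in size. The adjusted p of UGA4 stayed between 1.6e-06 and 0.00391 over all alternatives, the highest being that with the replicate number as a block.

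On the arrays labelled YPD, which chose the gene, UGA4 was 6.48-fold higher in SEF1-VP16 than in WT cells, or 2.70 on the log2 scale (SE 0.16, 95% interval 2.36 to 3.03). The dimmer probe gave 7.74-fold, or 2.95 (SE 0.13). UGA4 stood clear of the genes next below it in the same comparison. MDH1 (SAKL0G19140g), the mitochondrial malate dehydrogenase of the TCA cycle, was higher by 2.02 (SE 0.09) on the log2 scale, and the unnamed genes SAKL0D15334g by 1.85 (SE 0.21) and SAKL0B05940g by 1.74 (SE 0.13). On arrays labelled YPGly these 3 genes rose in SEF1-VP16 as well in the limma fit of all 16 arrays. The arrays labelled YPGly did not enter the choice of these genes. The spread in that fit, however, also came from the arrays labelled YPD, which did. MDH1 rose by 1.29 (SE 0.09, adjusted p 3.1e-07), SAKL0D15334g by 1.09 (adjusted p 0.00549) and SAKL0B05940g by 0.78 (adjusted p 0.00152).

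The excess of SEF1-VP16 over WT was smaller on arrays labelled YPGly than on those labelled YPD, a direction that turns round if the labels are exchanged. As a description, since it contains the contrast that chose the gene, the strain effect labelled YPGly minus that labelled YPD was −1.19 on the log2 scale (SE 0.23, 95% interval −1.67 to −0.71), and −1.32 (SE 0.18) on the dimmer probe. Most of this difference was between the SEF1-VP16 cultures of the 2 labels. Between labels, YPGly minus YPD, UGA4 differed by −1.31 (SE 0.16) in SEF1-VP16 cells and by −0.11 (SE 0.16, 95% interval −0.45 to 0.23) in WT cells. Over all genes the median difference between labels was 0.13 in SEF1-VP16 and 0.15 in WT, both above the UGA4 values. The WT value was 0.05 without WT YPD replicate 1, so its sign turned with 1 array.

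UGA4 varied more among cultures of 1 group than most genes did. Its residual SD was 0.24 for the brighter and 0.18 for the dimmer probe, against a median of 0.17 over all genes tested, and 25.6% of genes varied more than the brighter probe. The WT cultures labelled YPD were the most uneven, with normalised values of −2.81, −3.53, −3.75 and −3.10. Leaving out single arrays moved the YPD difference between 2.54, without WT YPD replicate 3, and 2.86, without WT YPD replicate 1.

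The genes of GABA use after its uptake were examined for a strain effect. Of the 4 genes of GABA use measured, limma called 0 where labelled YPD, as against 2.13% of all 5267 genes tested, and 0 where labelled YPGly, as against 2.3%. For a list of 4 genes a count of 0 is near these shares and does not set the list apart. At an unadjusted p under 0.05, limma and the methods' t-test each gave 0 of the 4 with either label. No share over all genes was taken at that threshold, so unadjusted counts here and below have no background beside them. UGA1 (SAKL0H20658g), the GABA transaminase, was at −0.74 ± 0.40 in SEF1-VP16 and −0.50 ± 0.43 in WT cells labelled YPD, and its strain effect was −0.24 with each label (SE 0.21). Its 95% interval, −0.69 to 0.21 on arrays labelled YPD, excludes a rise of 1.5-fold. The strain effects of the 2 loci named for the succinate semialdehyde dehydrogenase UGA2 were −0.13 (SE 0.11) for SAKL0C10824g and 0.18 (SE 0.10, 95% interval −0.03 to 0.40) for SAKL0H19514g where labelled YPD, and −0.13 (SE 0.11) and −0.03 (SE 0.10) where labelled YPGly. UGA3 (SAKL0F11616g), the activator, differed by −0.23 (SE 0.14) labelled YPD and −0.02 (SE 0.14) labelled YPGly. The median of the list was −0.18 and −0.08 with these labels, beside 0.02 and 0.01 over all genes.

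Between the labelled media, genes of GABA use differed in both strains. In SEF1-VP16 cells 1 of the 4 was called higher where labelled YPGly and 2 lower, in a comparison that called 46.4% of all genes (26.6% higher and 19.9% lower). In WT cells 2 were called, both lower, where 47.9% of all genes were called (27.4% higher and 20.5% lower). Both UGA2 loci were the genes that fell. SAKL0C10824g fell by 1.14 on the log2 scale in SEF1-VP16 (SE 0.11, adjusted p 1.5e-07) and by 1.14 in WT (SE 0.11, adjusted p 1.54e-07). SAKL0H19514g fell by 1.17 in SEF1-VP16 (adjusted p 3.56e-08) and by 0.95 in WT (adjusted p 3.95e-07, limma). UGA3 was higher by 0.68 in SEF1-VP16 (adjusted p 0.000536), a call lost on its other probe at 0.57 and without SEF1-VP16 YPD replicate 3 at 0.58, and by 0.46 in WT, below 1.5-fold. UGA1 differed by −0.32 and −0.31 (adjusted p 0.195 and 0.196).

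A pair of further loci carries the UGA4 name in the sources, and neither had the strain pattern of SAKL0G14762g. SAKL0E14806g, annotated as similar to the GABA permease, was at −5.26, −4.89, −4.79 and −5.03 in SEF1-VP16 cells labelled YPD, against −4.36, −4.75, −4.73 and −4.72 in WT cells labelled YPD. The SEF1-VP16 arrays were the lower ones, with no overlap, but the difference of −0.35 (SE 0.11) was not called (limma, adjusted p 0.0701). Its other probe, which was well above background on only 12 of the 16 arrays, gave −0.60 (adjusted p 0.0655), also not called. On arrays labelled YPGly its levels were −0.67 ± 0.04 in SEF1-VP16 and −0.78 ± 0.10 in WT (SD, n = 4), a difference of 0.10 (SE 0.11, adjusted p 0.66). This locus instead differed between labels, being higher on arrays labelled YPGly by 4.32 in SEF1-VP16 (SE 0.11, adjusted p 5.48e-15) and by 3.86 in WT (SE 0.11, adjusted p 2.08e-14).

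SAKL0G15136g, the other locus with the name, was at −2.35 ± 0.05 in SEF1-VP16 and −2.44 ± 0.18 in WT cells labelled YPD (SD, n = 4), a difference of 0.09 (SE 0.10, adjusted p 0.629). On arrays labelled YPGly it was at −2.01, −1.93, −2.05 and −1.90 in SEF1-VP16 cells and at −1.61, −1.87, −1.47 and −1.65 in WT cells. The SEF1-VP16 arrays were all below the WT arrays, with a difference of −0.32 (SE 0.10, adjusted p 0.0632) that was not called. The other probe of this locus gave −0.46 (adjusted p 0.0409), still under 1.5-fold. It was higher on arrays labelled YPGly by 0.79 in WT (SE 0.10, adjusted p 2.12e-06) and by 0.38, below 1.5-fold, in SEF1-VP16 (adjusted p 0.00256). Of these 2 loci, 0 were called for either strain effect, beside 2.13% of all genes labelled YPD and 2.3% labelled YPGly, and 1 had an unadjusted p under 0.05 with each label in limma and in the methods' t-test.

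**Figure D3:**
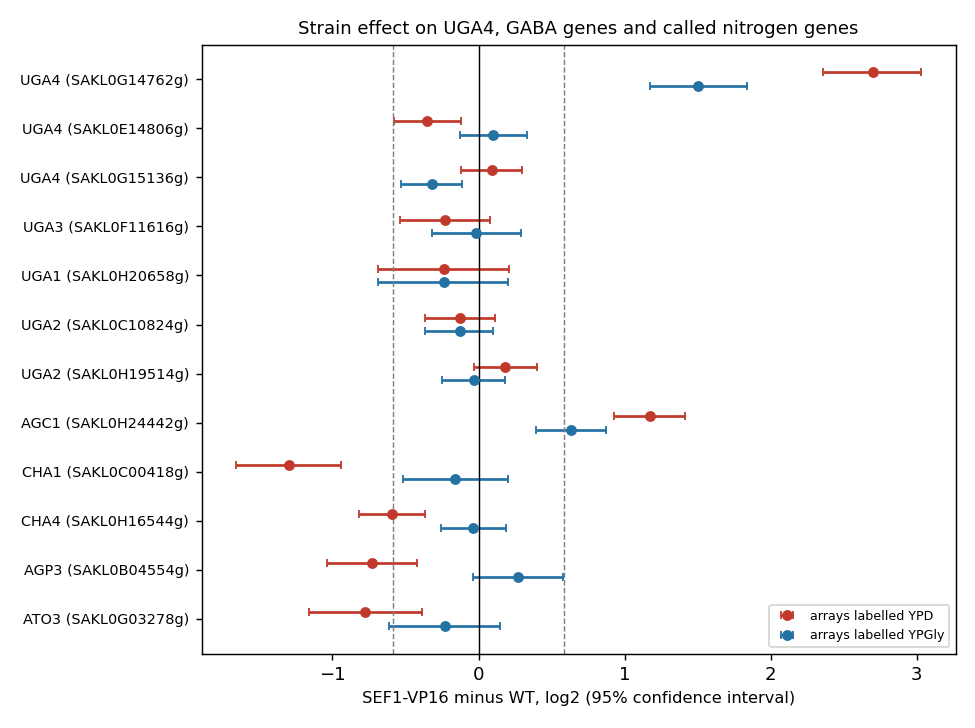
Strain effect, SEF1-VP16 minus WT on the log2 scale with 95% confidence intervals from the fit of 16 arrays (4 cultures per group), on arrays labelled YPD (red) and YPGly (blue), for UGA4, the other loci of that name, genes of GABA use, and the called genes of nitrogen metabolism and nitrogen transport. Dashed lines mark 1.5-fold, and only UGA4 and AGC1 lie to the right of it with both labels, AGC1 by a small margin where labelled YPGly (0.63).

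Other genes of nitrogen metabolism were examined for a shared change. Of 21 such genes, 1 was called higher and 2 lower in SEF1-VP16 where labelled YPD, or 14.3%. Of all genes 2.13% were called there, 1.48% higher and 0.646% lower. Where labelled YPGly 1 of the 21 was called, higher in SEF1-VP16 (4.76%, against 2.3% of all genes). Unadjusted p-values under 0.05 numbered 9 in limma and 6 in the methods' t-test labelled YPD, and 8 and 12 labelled YPGly. The list median was −0.03 and −0.13 with these labels, beside 0.02 and 0.01 over all genes. AGC1 (SAKL0H24442g), the mitochondrial carrier that exchanges aspartate and glutamate, was the gene that rose in both. It was at −0.67 ± 0.16 in SEF1-VP16 and −1.84 ± 0.23 in WT cells labelled YPD, and at 0.12 ± 0.13 in SEF1-VP16 and −0.51 ± 0.05 in WT cells labelled YPGly (SD, n = 4), with no overlap. The strain effect was 1.17 (SE 0.11, adjusted p 7.86e-06) labelled YPD and 0.63 (SE 0.11, adjusted p 0.00327) labelled YPGly. The call labelled YPGly was lost on its other probe (0.73, adjusted p 0.0589) and without SEF1-VP16 YPGly replicate 4 (0.58).

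CHA1 (SAKL0C00418g), the deaminase with which *S. cerevisiae* uses serine and threonine as nitrogen sources, and CHA4 (SAKL0H16544g), its activator there, were the genes that fell. CHA1 was at 1.36 ± 0.24 in SEF1-VP16 and 2.66 ± 0.32 in WT cells labelled YPD (SD, n = 4), a difference of −1.30 (SE 0.17, adjusted p 0.000178, limma). It was at −3.00 ± 0.16 in SEF1-VP16 and −2.84 ± 0.30 in WT cells labelled YPGly, a difference of −0.16 (adjusted p 0.666). CHA4 differed by −0.59 (SE 0.11, adjusted p 0.00337) labelled YPD, a call lost without WT YPD replicate 4 (−0.48) or without SEF1-VP16 YPD replicate 1 (−0.56), and by −0.04 labelled YPGly. A further locus named CHA1, SAKL0C13904g, gave −0.24 (adjusted p 0.101) labelled YPD, but −0.65 (adjusted p 0.00239) on its other probe, which passed both thresholds.

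Among the permeases for amino acids and other nitrogen compounds, 21 of 22 listed genes were tested, and none was called higher. Labelled YPD, 2 were called, both lower in SEF1-VP16 (9.52%, against 2.13% of all genes). Labelled YPGly, limma called 0 against 2.3% of all genes, while 3 had an unadjusted p under 0.05 in limma and 8 in the methods' t-test. Labelled YPD, these unadjusted counts were 9 in limma and 5 in the methods' t-test. AGP3 (SAKL0B04554g), a low-affinity amino acid permease, fell by 0.73 on the log2 scale labelled YPD (SE 0.15, adjusted p 0.00784). Its other probe gave −0.36 and normexp background correction −0.56, neither called, and without WT YPD replicate 4 the difference was −0.55. ATO3 (SAKL0G03278g), a putative ammonia exporter, fell by 0.78 (SE 0.18, adjusted p 0.0198) and was not called without WT YPD replicate 4 (−0.70), SEF1-VP16 YPD replicate 1 (−0.70) or SEF1-VP16 YPD replicate 3 (−0.66). The highest strain effect of any permease on the list was 0.34 labelled YPD and 0.32 labelled YPGly.

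The genes next to UGA4 in locus order were examined for the strain effect as well. Of the 5 tested genes on each side, 0 of 10 by limma were called for the strain effect with either label, against 2.13% and 2.3% of all genes. So low a share of all genes means that the count of 0 does not set these genes apart. At an unadjusted p under 0.05, limma and the methods' t-test each gave 1 labelled YPD and 3 labelled YPGly, again without a share over all genes. The strain effects of the 10 genes lay between −0.52 and 0.15 on arrays labelled YPD and between −0.01 and 0.47 on arrays labelled YPGly. The immediate neighbours were SAKL0G14740g, which differed by 0.10 (SE 0.15, adjusted p 0.731) labelled YPD and by 0.38 (SE 0.15, adjusted p 0.132) labelled YPGly, and SAKL0G14784g, which differed by 0.15 (SE 0.23) and 0.24 (SE 0.23). SAKL0G14718g was at 0.33 ± 0.07 in SEF1-VP16 and −0.14 ± 0.13 in WT cells labelled YPGly (SD, n = 4), a difference of 0.47 (SE 0.09, adjusted p 0.00573) that was below 1.5-fold. DIP5 (SAKL0G14916g), a permease for dicarboxylic amino acids, gave −0.52 (SE 0.11, adjusted p 0.0114) labelled YPD, and was called under normexp correction (−0.61) and without SEF1-VP16 YPD replicate 1 (−0.62). Its other probe gave −0.05 (adjusted p 0.884).

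**Figure D4:**
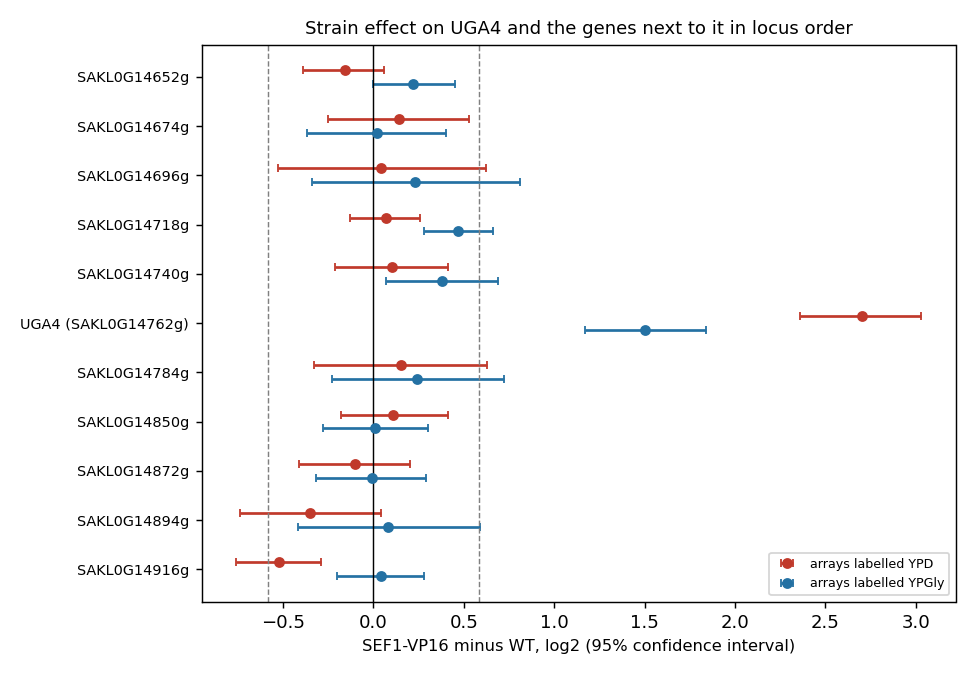
Strain effect, SEF1-VP16 minus WT on the log2 scale with 95% confidence intervals (4 cultures per group), for UGA4 and the 5 tested genes on each side of it in locus order, on arrays labelled YPD (red) and YPGly (blue). UGA4 stands at 2.70 and 1.5, and all 10 other estimates lie between the dashed lines at 1.5-fold.

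Of the 5 genes whose levels were most like those of UGA4 over the arrays, 3 belonged to the TCA cycle. Pearson correlations over the 16 arrays are given as descriptions, since the arrays share 4 group means, the slide and the scaling, and UGA4 was chosen for its difference between these strains. The highest were those of KGD1 (SAKL0E08866g, a subunit of ketoglutarate dehydrogenase) at 0.938, ACO1 (SAKL0H24046g, aconitase) at 0.915, UBA2 (SAKL0G03498g) at 0.913, NFU1 (SAKL0D13046g) at 0.912 and SDH4 (SAKL0H14146g, a subunit of succinate dehydrogenase) at 0.91. The 2 probes of UGA4 correlated at 0.99, and 6 genes were above 0.9. With each labelled medium centred on its own mean, 32 genes were above 0.9, led by MDH1 at 0.983, AFG1 (SAKL0G04642g) at 0.97, SAKL0G17512g at 0.953, IDH2 (SAKL0G03520g, a subunit of isocitrate dehydrogenase) at 0.948 and AGC1 at 0.947.

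These genes were higher in SEF1-VP16 than in WT with both labels, an order that picking by correlation with UGA4 favours. UGA4 was chosen as the largest rise labelled YPD, so every other gene has a smaller strain effect there. Some of the genes picked by correlation had, like UGA4, the smaller effect where labelled YPGly, and others did not. NFU1 gave strain effects of 1.66 labelled YPD and 0.80 labelled YPGly, UBA2 0.64 and 0.36, and MDH1 2.02 and 1.29. AFG1 gave 0.86 and 0.58, SAKL0G17512g 0.47 and 0.18, and AGC1 1.17 and 0.63. KGD1 gave 1.22 and 1.23, ACO1 1.27 and 1.52, SDH4 1.34 and 1.55, and IDH2 1.58 and 1.67, so that the estimates of these 4 genes were at least as large where labelled YPGly. MDH1 was the 1 TCA cycle gene of 21 with a called dependence of the strain effect on the label, at −0.73 (SE 0.13, adjusted p 0.0112, limma). In this contrast 1.14% of all genes were called (0.646% higher and 0.494% lower). The contrast contains the effect labelled YPD, by whose rank MDH1 was also named above, so this p-value is not independent of that choice. Of the 21 TCA cycle genes 10 were called labelled YPD and 13 labelled YPGly, each of them higher in SEF1-VP16. Of all genes 1.48% and 1.61% were called higher with these labels, and 0.646% and 0.684% lower. Their called effects lay between 0.71 for SDH1 and 2.02 for MDH1 with the label YPD, and between 0.59 for CIT1, which was called under 9 of 22 alternatives, and 1.67 for IDH2 with the label YPGly.

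**Figure D5:**
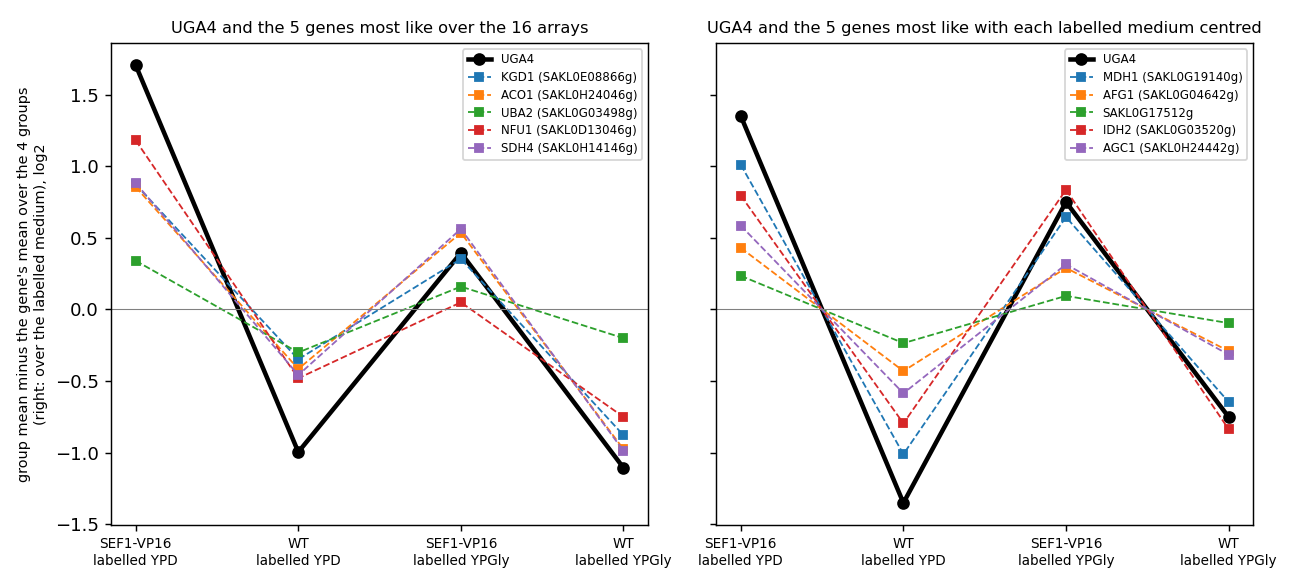
Group means of UGA4 (black) and the 5 genes most like it (dashed) on the log2 scale, each gene centred on its mean over the 4 groups (left) or on its mean within each labelled medium (right). On the left UGA4 spans the widest range. On the right all genes lie higher in SEF1-VP16 than in WT with both labels, an order that picking by correlation favours.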

How the data were processed

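RNA from 16 cultures was hybridised to single-colour custom Agilent arrays. The authors scanned and extracted them with Feature Extraction 10.5.1.1, and the deposited scanner files hold the processed signal (an intensity, after background subtraction), the median intensity of spot and local background, and flags given per the file headers. The deposited log2 table equalled the log2 processed signal plus 1 constant per array (largest deviation 1.74e-06, all 10620 gene probes matched by name), which lay within 0.00746 of scaling to the 75th percentile, and it served as an alternative.

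Of 11156 spots, 536 controls were left out. The 332 values marked non-uniform or as population outliers were treated as missing, none of them for UGA4. Values were log2 processed signal minus the log2 75th percentile of the array's gene probes. The probe brighter on average stood for its gene. Genes entered the tests if every array of some group showed them well above background. This held for 5267 genes, or 5257 among the 8 arrays labelled YPGly. limma 3.58.1 in R 4.3.3 fitted 4 group means to all 16 arrays, with Benjamini-Hochberg adjustment, and calls required 1.5-fold with adjusted p at most 0.05. The test of UGA4 used the 8 arrays labelled YPGly alone. The fits were tested on simulated data. The study's methods used an unpaired t-test, run as an alternative.

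Alternatives were normexp with offset 50 on the median signal, added because the files hold no mean signal, quantile normalization, median centring, the deposited table, the dimmer probe, no filter, a replicate block, and leaving out each array. Replicates were cultures, so p-values measure the spread between these cultures of 1 clone, and having 4 per group limits precision. Genes named by rule were the lists in the text, their called members, the 5 flanking genes each side, the 3 next below UGA4 by rise, and the 5 most like it by each correlation. Gene names come from the study's annotations of *S. cerevisiae* orthologs, and genes given by locus tag may also have one. The gene and the lists were chosen with earlier results of these data known. No genome was used here, so no position or sequence is given.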

Additional observations from a re-analysis of the deposited data

Results flagged for a closer look

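For 4 named genes other than UGA4, the strain effect labelled YPGly differed from that labelled YPD (their difference called by limma, as for 1.14% of all genes). It was 1.14 for CHA1 (SAKL0C00418g), 1.00 for AGP3 (SAKL0B04554g), −0.73 for MDH1 (SAKL0G19140g) and −0.96 for SAKL0B05940g. MDH1 and SAKL0B05940g kept the call under all 22 alternatives, CHA1 under 16 and AGP3 under 12, and the other AGP3 probe gave 0.24. CHA1 and AGP3 were named because they were called labelled YPD, and MDH1 and SAKL0B05940g by rank of rise there. The difference contains that effect, so these calls are not independent of the naming.

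Single arrays stood apart from the other 3 of their group by Dixon's criterion in 13 of 169 groups of named genes, where chance gives about 1 in 20. None was a UGA4 value of SAKL0G14762g. WT YPD replicate 1 was at −4.36 for SAKL0E14806g (others −4.75 to −4.72), 4.06 for DIP5 (SAKL0G14916g) and 3.04 for IDH1 (SAKL0E07876g). WT YPD replicate 4 was at −1.38 for SAKL0G14652g and −3.53 for AGP3 (SAKL0B04554g). SEF1-VP16 YPD replicate 2 was at −2.43 for SAKL0G15136g and −5.13 for AGP3, and SEF1-VP16 YPD replicate 1 was at −0.41 for SAKL0G14718g. SEF1-VP16 YPD replicate 4 was at 3.76 for MDH1 (SAKL0G19140g), 1.00 for CHA1 (SAKL0C00418g) and 0.04 for UBA2 (SAKL0G03498g). On arrays labelled YPGly, WT replicate 2 was at −0.73 for SAKL0G14674g and WT replicate 1 at 2.47 for SDH3 (SAKL0E04136g).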

How the results depend on the processing

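Of 262 values recomputed, 255 stayed as reported, by direction and threshold for the tested value, within 1.5 times for a count or within the residual SD of 0.24 for a described value. Many of these could not move, because leaving out an array outside a contrast leaves its UGA4 difference unchanged. The sign turned for the UGA4 difference between labels in WT, at −0.11, which was 0.05 without WT YPD replicate 1. By the rule of the residual SD that value was still counted as unchanged. The UGA4 difference labelled YPD was 2.44 under normexp correction and 2.95 on the dimmer probe. The count of genes called labelled YPD, 112, was 25 by the methods' t-test with Benjamini-Hochberg adjustment (115 unadjusted) and 62 with only the 8 arrays of that label. The nitrogen metabolism and permease genes called labelled YPGly, 1, were 0 on the dimmer probe. The cause was not tested.

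Leaving out each array gave 1.43 to 1.55 for UGA4 labelled YPGly, 2.54 to 2.86 labelled YPD, −1.38 to −1.25 and −0.26 to 0.05 between labels in SEF1-VP16 and in WT, −1.35 to −1.04 for the dependence on the label, 88 to 151 genes called labelled YPD, 85 to 133 labelled YPGly, and 3 (without WT YPD replicate 4) to 6 (without SEF1-VP16 YPD replicate 4) and 0 (without SEF1-VP16 YPGly replicate 4) to 1 nitrogen and permease genes.

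Deviations of same-numbered arrays of the strains correlated at −0.55 to 0.41. They were not compared with arrays of different number, so whether replicate numbers pair the samples was not settled. The replicate number was also the array column on both slides, and these cannot be told apart. With the number as a block, UGA4 labelled YPGly was 1.5 with an adjusted p of 0.00391, UGA4 labelled YPD 2.70, and 114 and 123 genes were called.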
